A study of Homo sapiens with 2 samples.

Results

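The DLK1-DIO3 region on chromosome 14 holds one of the largest groups of human miRNA genes, and its members were examined in RNA from exosomes of FaDu cells, an established human line grown from a squamous carcinoma of the hypopharynx. Members were chosen by the number in the miRNA name, from miR-127 to miR-1197 according to a fixed list of numbers known from this locus, with miR-544b left out. The rule itself uses names and no intensity. It gave 91 of the 2549 miRNAs on the array. RNA came from exosomes of cells given a lentivirus plasmid that overexpressed HOTTIP, a lncRNA of the HOXA locus (oe-HOTTIP), or a control plasmid (oe-NC), and 1 array was hybridized for each. HOTTIP itself was not measured by these arrays, so the overexpression could not be checked. For each array the title and treatment contradict the description, which gives the opposite group. Groups here follow the titles, so each array is named by its title, and every direction reverses if the descriptions hold instead. By the titles, the unscaled direction is opposite to that of the study, which followed miR-19a-3p, miR-19b-3p and miR-1306-3p, among others, as lower with HOTTIP. On these arrays miR-19a-3p stood at 9.33 and 22.4, miR-19b-3p at 78.8 and 157.1, and miR-1306-3p at -0.401 and 25.2, each time with the array titled oe-NC first. These values are unscaled, and the array titled oe-HOTTIP was brighter as a whole, by a median log2 difference of 0.67. The other candidates of the study were not compared here. There were no replicates, so no p-value was computed and the precision of every comparison is limited by the single array in each group. Equal masses of RNA went into the labelling, so a signal relates to the share of a miRNA in that RNA. The number of vesicles and the amount of a miRNA per vesicle were not measured.

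The miRNAs of this region are imprinted. They are cut from long noncoding RNAs that are transcribed from the maternally inherited chromosome, in the stretch that includes MEG3 and MEG8, whereas the protein-coding genes DLK1, RTL1 and DIO3 are expressed from the paternal copy. Each hairpin can give a mature miRNA from its 5p arm and another from its 3p arm. The cluster is best known from the embryo, the placenta and the brain, and it is often reported as silent or reduced in epithelial tumours.

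In RefSeq, 90 of the 91 members were found, and all 90 lay on the plus strand of chromosome 14 (GRCh38.p14), in 51 hairpin genes between chr14:100869075-101066786, a span of 198 kb. miR-668-3p was not matched. The mature sequences of the 7 members that the scanner software marked as detected are shown because all comparisons between the arrays rest on them. They are written 5′ to 3′ in chromosome order, and capitals mark the seed, bases 2 to 8, which pairs with target RNAs.
miR-494-3p: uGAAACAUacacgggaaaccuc
miR-376c-3p: aACAUAGAggaaauuccacgu
miR-654-5p: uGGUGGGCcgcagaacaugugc
miR-1185-1-3p: aUAUACAGggggagacucuuau
miR-1185-2-3p: aUAUACAGggggagacucucau
miR-382-5p: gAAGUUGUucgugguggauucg
miR-134-5p: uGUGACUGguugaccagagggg

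The 7 sequences had 6 different seeds, and only the miR-1185 pair shared one. The members of that pair differed by U20C, with positions counted from the 5′ end of miR-1185-1-3p. For the other 5, among the 2248 array miRNAs with a RefSeq sequence, no further one had the same seed apart from miR-541-3p with that of miR-654-5p and miR-3118 with that of miR-134-5p, and both of these were detected on neither array.

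Signal from the cluster was found for few members. On the array titled oe-NC, 3 of the 91 members (3.30%) were detected, against 12.9% of all miRNAs on that array. On the array titled oe-HOTTIP, 7 members (7.69%) were detected, against 15.3% of all miRNAs. All 3 members detected on the first array were among the 7 of the second, namely miR-494-3p, miR-376c-3p and miR-654-5p. Over all miRNAs, 10.2% were detected on both arrays and 17.9% on at least 1. miR-494-3p was far above background on both arrays. The other 6 were close to it on the array titled oe-NC, while on the array titled oe-HOTTIP miR-654-5p, miR-1185-1-3p and miR-134-5p passed the mean plus 3 SD of the negative control spots. Each member had 20 spots per array, spread over 2 to 4 probes. Of the 1820 member spots, the software marked 32 (1.76%) as well above background on the array titled oe-NC and 77 (4.23%) on the array titled oe-HOTTIP, against 8.78% and 10.6% of all miRNA spots, and miR-494-3p alone accounted for 20 of them on each array. Where detection asked instead for more than 50% of the spots to be well above background, miR-494-3p was the single member on the array titled oe-NC, and miR-494-3p, miR-1185-1-3p and miR-134-5p were the 3 on the array titled oe-HOTTIP. Over all miRNAs this rule detected 7.81% and 9.14%.

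**Figure D1:**
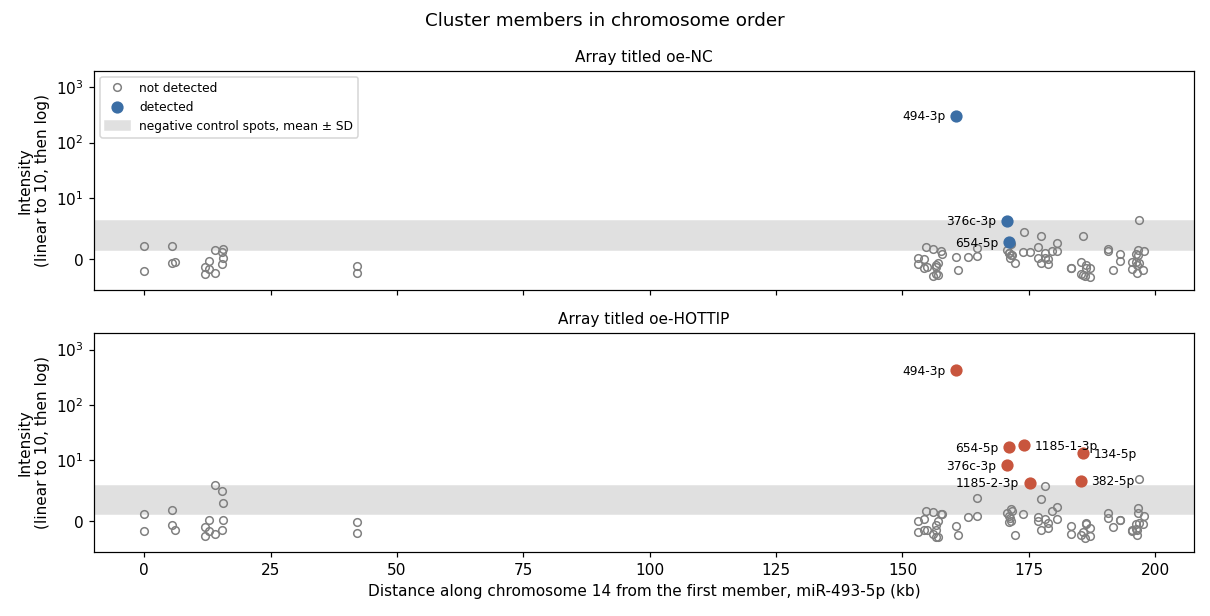
Intensity of the 90 members with a known position (linear up to 10, logarithmic above) against the distance in kb from miR-493-5p, the first member along chromosome 14. Filled points were detected, open points were not, the grey band is the mean ± SD of the negative control spots, and all 7 detected members lie between 160 and 186 kb; intensities of different probes do not compare the amounts of different miRNAs.

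The arrays differed as a whole, which touches each comparison below. The array titled oe-HOTTIP was brighter, and before scaling the 261 miRNAs detected on both arrays had a median log2 difference of 0.67 in its favour. Among the spike-ins added at labelling, dmr_285 was higher by 0.77 and dmr_31a by 0.51 on that scale. It also had 129 miRNAs detected only there, against 67 on the other array. The part of this brightness in the detection of the cluster members was not tested. Among miRNAs that mark cell types, 5 of 8 epithelial ones were detected on the array titled oe-NC and 6 on the array titled oe-HOTTIP. All sums here are unscaled and leave negative intensities out. The summed intensities of the epithelial miRNAs were 530.4 and 639.9, mostly from miR-205-5p (415.1 and 489.9). miR-429 and miR-203a-3p were detected on neither. Of 6 blood and serum miRNAs, 5 were detected on each array and miR-142-3p on neither. Their summed intensities were 2281 and 2625, mostly from miR-451a (2233 and 2552). Of 5 fibroblast and smooth muscle miRNAs, 1 was detected on each array (summed 7.53 and 8.14), and of 3 neural miRNAs also 1 (summed 5.99 and 13.1), with miR-124-3p and miR-9-5p on neither. Of 3 muscle miRNAs, 1 was detected on each array, miR-133a-3p on the array titled oe-NC and miR-206 on the array titled oe-HOTTIP (summed 8.94 and 14.6). miR-122-5p, the liver miRNA, stood at 8.99 and 14.8. Whether RNA from such cells entered the cluster signals was not tested.

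miR-494-3p was the member with a clear signal in exosomes of both cultures, and it hardly differed between them. It lies at chr14:101029681-101029702, in the distal group that begins at miR-379. Its intensity was 306.9 ± 22.1 (SD, n = 19 spots) on the array titled oe-NC and 419.3 ± 55.7 (SD, n = 19 spots) on the array titled oe-HOTTIP. For scaling, the 90th percentile of the jointly detected miRNAs was used, 279.9 on the first array and 439.4 on the second. miR-494-3p then stood at 110% and 95.4% of that percentile, a log2 difference of -0.20 (oe-HOTTIP minus oe-NC) with a spread of 0.22 over spots. This is smaller than the spread of single spots, though larger than the technical SE over spots, 0.05. It is well under the 2-fold threshold of the methods. All 20 spots were well above background on each array. Its 2 probes differed in brightness, 458.3 ± 29.3 (9 spots) and 155.5 ± 12.5 (10 spots) on the array titled oe-NC and 592.5 ± 74.6 (10 spots) and 246.1 ± 18.1 (9 spots) on the array titled oe-HOTTIP. After scaling, the log2 differences of these probes were -0.28 and 0.01, so they did not share a sign. Without scaling the log2 difference was 0.45, below the 0.67 of all miRNAs detected on both arrays. The opposite arm of the same hairpin, miR-494-5p, was detected on neither array, at 0.289 ± 2.27 (20 spots) and -0.842 ± 1.99 (20 spots).

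**Figure D2:**
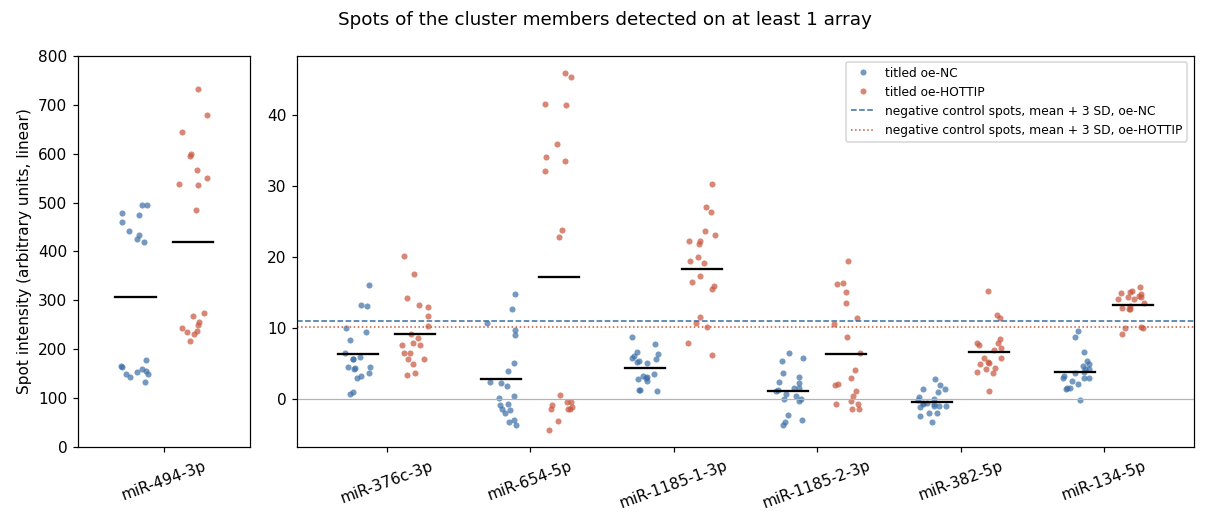
Intensity of each spot that was not an outlier (points, linear scale in arbitrary units) for the 7 detected members on both arrays, with bars at the mean over probes; dashed and dotted lines mark the mean + 3 SD of the negative control spots of each array, 10.99 and 10.08. The spots of miR-494-3p lie between 133.7 and 732, in a group for each probe, while those of the other members reach down to the level of the negative controls on the array titled oe-NC.

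miR-376c-3p was detected on both arrays at low signal and did not differ beyond its spread. It belongs to the miR-376 group, whose transcripts are known for A-to-I editing. Its intensity was 6.28 ± 3.30 (SD, n = 19 spots) on the array titled oe-NC and 9.13 ± 3.63 (SD, n = 19 spots) on the array titled oe-HOTTIP. The negative control spots stood at 3.87 ± 2.37 (SD, n = 976 spots) and 3.45 ± 2.21 (SD, n = 975 spots), so both values were less than 3 SD above them. The log2 difference after scaling was -0.11 with a spread of 0.95 over spots. It rests on the removal of 1 outlier spot of 3449 on the array titled oe-NC, and with outlier spots kept the difference was -5.01.

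The related members miR-376a-3p and miR-376b-3p are shown beside miR-376c-3p because their sequences are almost the same as its own.
miR-376c-3p: aACAUAGAggaaauuccacgu
miR-376a-3p: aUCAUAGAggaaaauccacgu
miR-376b-3p: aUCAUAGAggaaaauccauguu
From miR-376c-3p to miR-376a-3p there were 2 substitutions, A2U in the seed and U14A outside it, and to miR-376b-3p C19U was added. Neither was detected on either array. miR-376a-3p stood at 0.944 ± 1.73 (19 spots) and -0.149 ± 1.17 (19 spots), and miR-376b-3p at 0.608 ± 1.93 (20 spots) and 0.0510 ± 1.55 (19 spots). miR-376a-3p and miR-376b-3p share a seed, which miR-376c-3p does not have.

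Among the 7 detected members, those at least 2-fold higher on the array titled oe-HOTTIP were the remaining 5, miR-654-5p, miR-1185-1-3p, miR-1185-2-3p, miR-382-5p and miR-134-5p. No member was 2-fold lower, but only the 3 members detected on both arrays could have been. The other 4, detected on the array titled oe-HOTTIP alone, could only be called higher. The 3 detected on both had a median log2 difference of -0.11, beside 0.02 for all 261 miRNAs detected on both arrays. Over the 457 miRNAs detected on at least 1 array, 33.9% were at least 2-fold higher and 25.2% at least 2-fold lower, or 48.8% and 13.8% without scaling. The 4 members seen on the array titled oe-HOTTIP alone have a bound in place of a fold. Its denominator is the member's own signal on the other array or, if higher, the smallest signal called detected there. All 5 were near background on the array titled oe-NC, so the bounds are not strict, and the calls depended on the processing. There were 2 calls with a higher floor for the bounds (18.8% of all tested) or with the brightest probe of each miRNA (20.8%). There were 0 with normexp, a model-based correction of the background, with an offset of 50 (1.75%) or none (11.6%), and 0 with detection by more than 50% of the spots (31%). The offset is larger than any mean intensity of the 5, so 2-fold was hardly within reach with it.

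miR-654-5p was detected on both arrays, with an intensity of 2.78 ± 1.78 (SD, n = 20 spots) on the array titled oe-NC and 17.1 ± 6.08 (SD, n = 20 spots) on the array titled oe-HOTTIP. The log2 difference after scaling was 1.97, with a spread of 1.06. On the array titled oe-NC its mean was under that of the negative control spots, although it was called detected, so the size of this difference has no firm denominator. Its 4 probes did not give one picture. Probes 1 and 2 had no signal on either array, from -2.56 to -0.305, whereas probe 3 stood at 2.70 ± 1.83 and 34.5 ± 7.70 and probe 4 at 11.3 ± 2.38 and 36.7 ± 9.26 (5 spots each). On the array titled oe-NC, 2 spots of probe 4 and none of probe 3 were well above background, and the log2 difference of probe 4 after scaling was 1.05. The other arm, miR-654-3p, stood at 0.130 ± 1.64 and 0.556 ± 1.62 (19 spots each) and was detected on neither array.

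**Figure D3:**
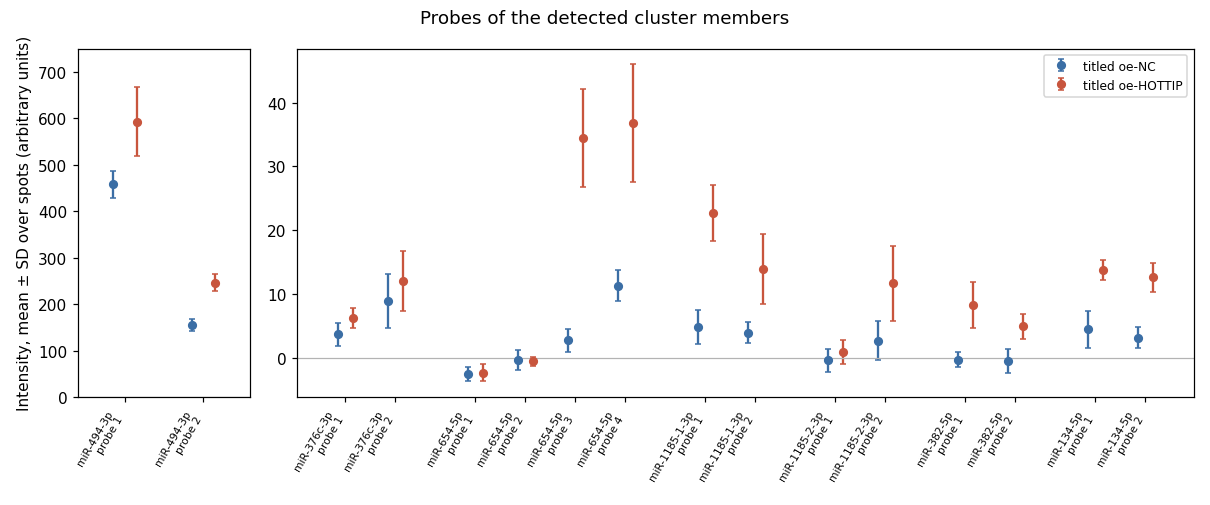
Mean intensity ± SD over spots (arbitrary units, linear) of each probe of the 7 detected members, blue for the array titled oe-NC and red for the array titled oe-HOTTIP. miR-654-5p has signal from probes 3 and 4 only, miR-1185-2-3p from probe 2 on the array titled oe-HOTTIP, and both probes of miR-1185-1-3p, miR-382-5p and miR-134-5p are higher on the array titled oe-HOTTIP.

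miR-1185-1-3p and miR-1185-2-3p come from neighbouring hairpins and share the seed UAUACAG. miR-1185-1-3p had an intensity of 4.37 ± 2.22 (SD, n = 19 spots) on the array titled oe-NC, where it was not detected, and of 18.3 ± 4.96 (SD, n = 20 spots) on the array titled oe-HOTTIP, where 15 of 20 spots were well above background. The bound was at least 2.67-fold higher after scaling, and 2.19-fold with the higher floor. miR-1185-2-3p stood at 1.11 ± 2.49 (SD, n = 20 spots) and 6.26 ± 4.35 (SD, n = 20 spots), a bound of at least 3.58-fold, and the higher floor gave no fold. Its signal came from 1 of its 2 probes, with 11.7 ± 5.85 (10 spots) for probe 2 and 0.847 ± 1.90 (10 spots) for probe 1 on the array titled oe-HOTTIP. The sequences differ at 1 base, and how far the probes tell them apart was not tested, so the pair is uncertain as separate measurements. miR-1185-5p, which both hairpins give, was detected on neither array, at 1.08 ± 1.95 (19 spots) and 1.24 ± 1.99 (20 spots).

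miR-134-5p and miR-382-5p lie next to each other near the end of the cluster. miR-134-5p, a miRNA of neurons known to repress the kinase LIMK1 in dendrites, stood at 3.80 ± 2.35 (SD, n = 20 spots) on the array titled oe-NC and 13.2 ± 1.97 (SD, n = 19 spots) on the array titled oe-HOTTIP. The lowest of its spots on the array titled oe-HOTTIP was 9.05 and the highest on the array titled oe-NC was 9.50, so the 2 sets of spots hardly overlapped before scaling. After scaling they overlapped, with the highest spot of the array titled oe-NC at 3.39% of the 90th percentile and the spots of the other array between 2.06% and 3.57%. The bound was at least 2.21-fold higher, and 1.58-fold with the higher floor. Its probes stood at 13.8 ± 1.59 (9 spots) and 12.6 ± 2.26 (10 spots) on the array titled oe-HOTTIP. miR-382-5p stood at -0.433 ± 1.56 (SD, n = 20 spots) and 6.62 ± 2.94 (SD, n = 19 spots), and 2 of its 20 spots were well above background on the array titled oe-HOTTIP. The bound was at least 4.32-fold higher against the lowest detected signal, 0.976, and the higher floor gave no fold. The other arms, miR-134-3p and miR-382-3p, were detected on neither array and stood between -2.61 and -1.82.

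**Figure D4:**
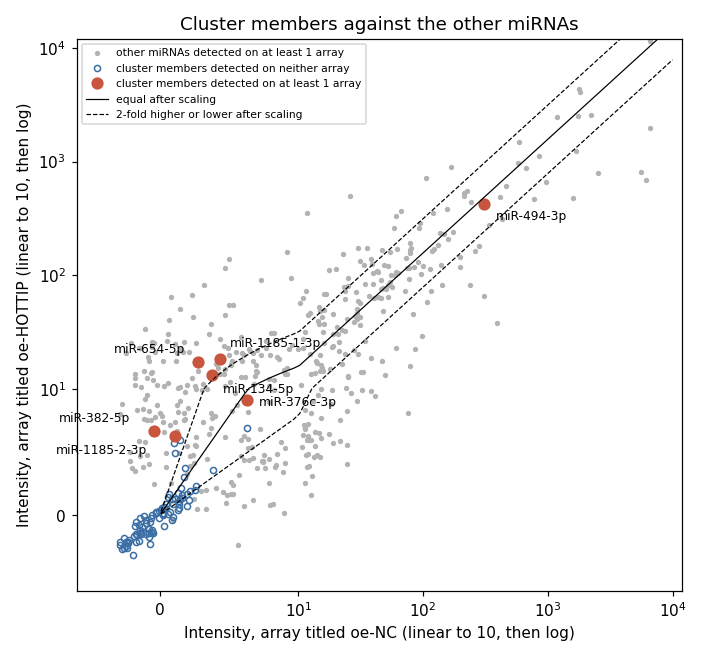
Intensity on the array titled oe-HOTTIP against the array titled oe-NC (both axes linear up to 10, logarithmic above) for the cluster members and for the other miRNAs detected on at least 1 array. The solid line marks equal values after scaling and the dashed lines 2-fold; miR-494-3p and miR-376c-3p lie between the dashed lines, and the 84 members detected on neither array lie near 0 on both.

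The other 84 members had no detected signal in exosomes of either culture. Their intensities ranged from -2.84 to 6.31 with a median of -0.248 on the array titled oe-NC, and from -3.14 to 6.91 with a median of -0.186 on the array titled oe-HOTTIP. The medians of all 2092 miRNAs detected on neither array were -0.817 and -0.582. Against the negative control mean, all but 1 of the 84 were lower on the array titled oe-NC, and all but 6 on the array titled oe-HOTTIP. The upper quartiles of the 2092 miRNAs, 0.373 and 0.546, also lay under those means, 3.87 and 3.45. Most undetected miRNAs of the array were thus lower too, and the count does not set the members apart. Unscaled, 43 of the 84 (51.2%) were higher on the array titled oe-HOTTIP, against 54.8% of the 2092 miRNAs. Of their 1680 spots, 6 and 5 were well above background.

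Among these 84, the 5 with the highest mean signal after scaling were miR-410-3p, miR-487b-3p, miR-127-3p, miR-539-5p and miR-432-5p. miR-410-3p was the highest of them, at 6.31 ± 2.71 (SD, n = 20 spots) and 6.91 ± 2.57 (SD, n = 20 spots), with none of its spots well above background. miR-127-3p and miR-432-5p, which lie antisense to the imprinted gene RTL1, stood at 1.49 ± 1.56 (19 spots) and 1.12 ± 2.29 (20 spots) on the array titled oe-NC and at 5.91 ± 1.94 (19 spots) and 4.93 ± 1.6 (20 spots) on the array titled oe-HOTTIP. miR-539-5p was at 1.01 ± 1.68 and 5.69 ± 2.52, and miR-487b-3p at 3.81 ± 2.66 and 3.57 ± 2.42 (20 spots each). Of these 5, miR-127-3p, miR-432-5p and miR-539-5p were higher on the array titled oe-HOTTIP by more than either SD, unscaled. None has a fold, since none was detected.

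By position, the detected members were found in one part of the span of the listed members. The proximal group, from miR-493 to miR-370 and including the miRNAs antisense to RTL1, had 17 members and none was detected on either array. Their intensities ranged from -2.44 to 2.21 on the array titled oe-NC and from -2.49 to 5.91 on the array titled oe-HOTTIP, where miR-127-3p was the highest. The distal group, from miR-379 to miR-656, had 74 members, of which 3 and 7 were detected. From miR-494-3p to miR-134-5p, at chr14:101029681-101054715, the detected members spanned 25.035 kb, with 34 members of 21 hairpins in that stretch. The 27 undetected members of the stretch stood among the detected ones and reached at most 3.81 and 5.69. Those interleaved members include miR-543, miR-495-3p, miR-300, miR-381-3p, miR-889-3p and miR-655-3p. The stretch runs from the first to the last detected member, so by construction no detected member with a position lies outside it. Outside it lay, or had no position, 57 undetected members. One of them, miR-410-3p, stood at 6.31 on the array titled oe-NC, above the detected miR-376c-3p at 6.28. On the array titled oe-HOTTIP it stood at 6.91, above the detected miR-382-5p at 6.62. The position pattern thus rests in part on detection flags near background. By arm, 4 of the 42 members named 3p and 3 of the 42 named 5p were detected on at least 1 array, and none of the 7 without an arm in their name. No hairpin had both arms detected. Arms were not counted over all array miRNAs, so these counts do not show a trait of the cluster.

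Among the 90 members with a sequence there were 79 seeds. Seeds shared by members formed 10 families with 21 members in all. Beside the miR-1185 pair, the families are miR-300 with miR-381-3p, miR-154-3p with miR-487a-3p, miR-379-3p with miR-411-3p, miR-541-3p with miR-654-5p, miR-376b-5p with miR-376c-5p, miR-485-3p with miR-539-3p, miR-376a-3p with miR-376b-3p, miR-487a-5p with miR-487b-5p, and a group of 3 made of miR-323b-5p, miR-410-5p and miR-494-5p. The 18 family members not detected stood between -1.69 and 2.51 on the array titled oe-NC and between -2.26 and 1.96 on the array titled oe-HOTTIP. The members were poorer in G and C than the array as a whole, with a median GC content of 45.5% against 52.2% for the 2248 array miRNAs found in RefSeq. Detected and undetected members had the same median, 45.5%. Over the array, the miRNAs detected on at least 1 array had a median GC content of 60%, against 50% for the others. Of the 977 array miRNAs with a GC content between 38.8% and 54.5%, the quartiles of the members, 13.8% were detected on at least 1 array, against 7.78% of the 90 members. The 90 include members outside that range, so these shares are over unlike sets. The part of base composition in the detection of the members was not tested.

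Other miRNAs of the same locus and a second imprinted cluster were read for comparison. Of 4 further miRNAs of the DLK1-DIO3 locus, miR-770-5p, miR-1247-5p and miR-1247-3p were detected on neither array. miR-2392 stood at 1.49 ± 1.52 (SD, n = 19 spots) on the array titled oe-NC and was detected on the array titled oe-HOTTIP at 10.4 ± 2.73 (SD, n = 19 spots), a bound of at least 4.46-fold, or 1.25-fold with the higher floor. It lies at chr14:100814551-100814570, before miR-493 and outside the stretch of the detected members, so detection in the locus was not confined to that stretch. The chromosome 19 cluster, which is expressed from the paternal copy and mainly in the placenta, had 48 miRNAs on the array, and 0 of them were detected on either array.

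**Figure D5:**
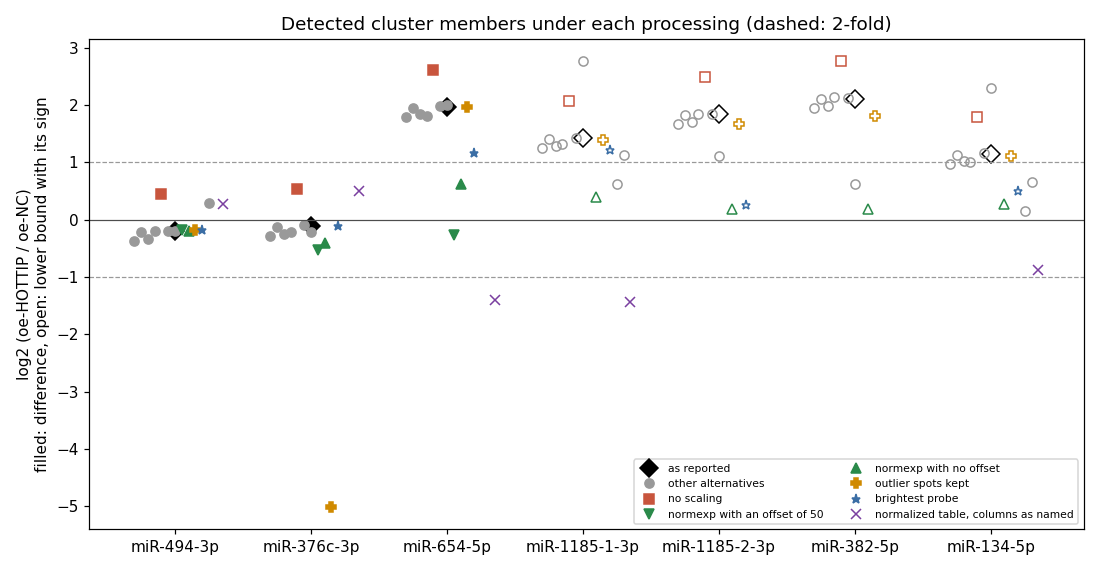
Log2 difference between the arrays (oe-HOTTIP over oe-NC, filled) or signed bound (open) of the 7 detected members under each processing, with dashed lines at 2-fold. miR-494-3p stays between -0.37 and 0.45 over the alternatives from the scanner output, and the 5 higher members, where they have a value, fall under 2-fold with normexp and lie on the other side in the normalized table read by its column names.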

How the data were processed

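Exosome RNA was measured on 2 one-colour Agilent miRNA arrays, with 200 ng of RNA labelled for each. The authors deposited the scanner output of Agilent Feature Extraction (10.10 per the submitters' processing notes, 11.5.1.1 per the file headers), with a background-subtracted intensity per spot, and a GeneSpring table of 2570 log2 values, which the methods describe as normalized to the 90th percentile. Its columns ran opposite to the scanner output, and which one carries the right names stays unknown.

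From the scanner output, control and outlier spots were left out, spots were averaged per probe and probes per miRNA. The scaling factor was the 90th percentile of the jointly detected miRNAs in each array, and log2 followed. Detection was the flag of the scanner software. SDs are over spots, pooled within probes, and cover technical error only. The spread of a log2 difference joins the relative SDs in quadrature. The higher floor for bounds was the lowest signal at which 50% of the 51 miRNAs around it in rank were detected, 5.32 on the array titled oe-NC. The lowest detected signal, 0.976, was under the negative control mean of 3.87 on that array. So were the signals of miR-1185-2-3p, miR-134-5p and miR-2392 there, and that of miR-1185-1-3p, 4.37, was within the SD of 2.37. None of the bounds against these signals is strict.

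Members and lists were chosen with earlier results of these data known. Named were all detected members, the 5 undetected members with the highest mean scaled signal, and the seed families; further undetected members were named after their values were seen. Sequences and positions came from RefSeq (GRCh38.p14). Alternatives were other scalings, summed signals, normexp on the median spot signals, other detection rules, outlier spots kept, the brightest probe, the higher floor and the normalized table. The summary was tested on simulated arrays, only for miRNAs detected on both and with noise proportional to signal. Bounds and the noise of signals near background were not covered by that test. normexp came from limma 3.58.1 (R 4.3.3), the figures from matplotlib 3.10.9, and the rest from Python 3.11.15 with pandas 2.3.3 and numpy 2.4.6.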

Additional observations from a re-analysis of the deposited data

How the results depend on the processing

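No paired analysis was possible because there was a single array for either group, and replicates could not be left out. All alternatives were run, with the median spot signal used for normexp.

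The number of detected members changed with the rule. With over 50% of the spots well above background it was 1 on the array titled oe-NC (7.81% of all miRNAs) and 3 on the array titled oe-HOTTIP (9.14%), and above the mean plus 3 SD of the negative control spots it was 1 and 4 (8.63% and 11.53%). In the normalized table, read by its column names, it was 7 and 2 (15.2% and 12.4%), since the columns run opposite to the scanner output. The 5 members higher by 2-fold became 2 with the brightest probe or the higher floor, and 0 with detection by over 50% of the spots, with normexp and an offset of 50, with normexp and no offset, and in the table (23.4% of all tested were higher there). The 0 lower members became 1 with outlier spots kept (miR-376c-3p, 25.8% of all) and 2 in the table (18.4%). Under each other alternative, 4 or 5 members were higher and 0 lower. The median of the members detected on both arrays, -0.11, ranged from -0.28 to 0.54, and was 0.30 with detection by over 50% of the spots, where it is miR-494-3p alone.

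Single members changed sign as follows. miR-494-3p went from -0.20 to 0.45 without scaling, 0.30 with detection by over 50% of the spots and 0.28 in the table. miR-376c-3p went from -0.11 to 0.54 without scaling and 0.50 in the table. miR-654-5p stood at -0.27 with normexp and an offset of 50, where the median of all miRNAs detected on both arrays was -0.33. In the table miR-654-5p stood at -1.39, miR-1185-1-3p at -1.43 and miR-134-5p at -0.87, all with the sign of the opposite columns, and miR-1185-2-3p and miR-382-5p had no fold there. The cause of the normexp change was not tested. Scaling moved the median of all miRNAs detected on both arrays by 0.65 without scaling and by -0.17 with the 90th percentile over all miRNAs. Relative to that median, miR-494-3p stood at -0.22, at 0.15 with normexp and an offset of 50, and at 0.09 in the table. Signal over background limits all members but miR-494-3p.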
